A study of Homo sapiens with 10 samples.

Results

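CCN1, CCN2, ANKRD1, AMOTL1, AMOTL2, LATS2, AJUBA and AXL are 8 genes known as targets of the transcriptional coactivator YAP and its DNA-binding partners of the TEAD family. They were chosen by name as pathway genes and matched through Ensembl identifiers. All 8 were present among the 20327 genes measured in each of 10 RNA sequencing libraries of hTERT RPE-1 cells, a wild-type human line derived from retinal pigment epithelium and immortalised with telomerase. All cells had been kept for 48 h in medium with 0.1% serum, so no group stands for growing cells. In the 30 min experiment, 3 libraries of cells given 200 µM merbarone for 30 min were set against 3 of cells given the vehicle DMSO for 30 min. In the 2 h experiment, 2 libraries of cells given 200 µM merbarone for 2 h were set against 2 of untreated cells, which had received no vehicle. Merbarone is a catalytic inhibitor of topoisomerase II, the enzyme that passes DNA strands through each other to relieve supercoils and tangles, and the series concerns RNA polymerase II pausing and DNA supercoiling. Libraries were made from polyadenylated RNA of whole cultures, and the labels do not say whether replicates were separate cultures, so the tests measure the spread between these libraries.

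YAP and its paralogue TAZ (gene WWTR1) lack a DNA-binding domain and act on promoters and enhancers through TEAD factors, often beside AP-1. The kinases of the Hippo cascade, MST and LATS, phosphorylate YAP and keep it in the cytoplasm, while cell spreading, actin tension and serum lipids release it into the nucleus. CCN1 (formerly CYR61) and CCN2 (formerly CTGF) encode secreted matrix-associated proteins that bind integrins and are widely used readouts of YAP. ANKRD1 encodes an ankyrin repeat protein of nucleus and sarcomere. AMOTL1 and AMOTL2 encode angiomotin family proteins that can hold YAP at junctions, LATS2 encodes a YAP kinase, and AJUBA a LIM domain protein that binds LATS kinases. AXL encodes a receptor tyrosine kinase with the ligand GAS6.

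The promoters of CCN2 and ANKRD1 are shown because the genes rose together at 2 h and because these promoters hold the most copies of the TEAD core motif among the genes with a promoter sequence here. RefSeq promoter sequences (GRCh38.p14) were found for 7 of the 8 genes, 10 promoters in all, and CCN1 was not among them. The motif GGAATG, or CATTCC on the other strand, was searched in the 250 bases before each transcription start. Each sequence is read 5′ to 3′ along the strand of the gene, and capitals mark the motif.
CCN2: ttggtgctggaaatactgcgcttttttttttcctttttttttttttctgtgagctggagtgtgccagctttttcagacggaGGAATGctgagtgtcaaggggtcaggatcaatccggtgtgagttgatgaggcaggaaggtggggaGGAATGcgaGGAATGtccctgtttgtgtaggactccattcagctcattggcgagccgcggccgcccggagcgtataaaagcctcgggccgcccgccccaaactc
ANKRD1: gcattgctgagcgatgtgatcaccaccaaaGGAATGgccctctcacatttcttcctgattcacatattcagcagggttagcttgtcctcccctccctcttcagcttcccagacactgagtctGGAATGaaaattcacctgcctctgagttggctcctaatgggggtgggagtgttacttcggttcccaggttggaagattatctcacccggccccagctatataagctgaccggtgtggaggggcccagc
The CCN2 sequence is chr6:131951373-131951622 and the ANKRD1 sequence is chr10:90921088-90921337, both on the minus strand. In CCN2 the 3 matches began 169, 104 and 95 bases before the start. In ANKRD1 the 2 matches began 220 and 128 bases before it. Of 35116 RefSeq promoters, 11.9% held at least 1 match in the same window, 0.94% at least 2 and 0.0826% at least 3. AMOTL2, AJUBA and AXL each have 2 RefSeq promoters, of which 1 held 1 match, and the promoters of AMOTL1 and LATS2 held 0. The AP-1 motif TGANTCA, which reads the same on both strands, had 1 match in the ANKRD1 window, 195 to 189 bases before the start and clear of the TEAD matches. It had 0 in the other 9 promoters, against 6.57% of all promoters with at least 1. These matches describe letters in a window and do not show that a factor binds there.

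**Figure D1:**
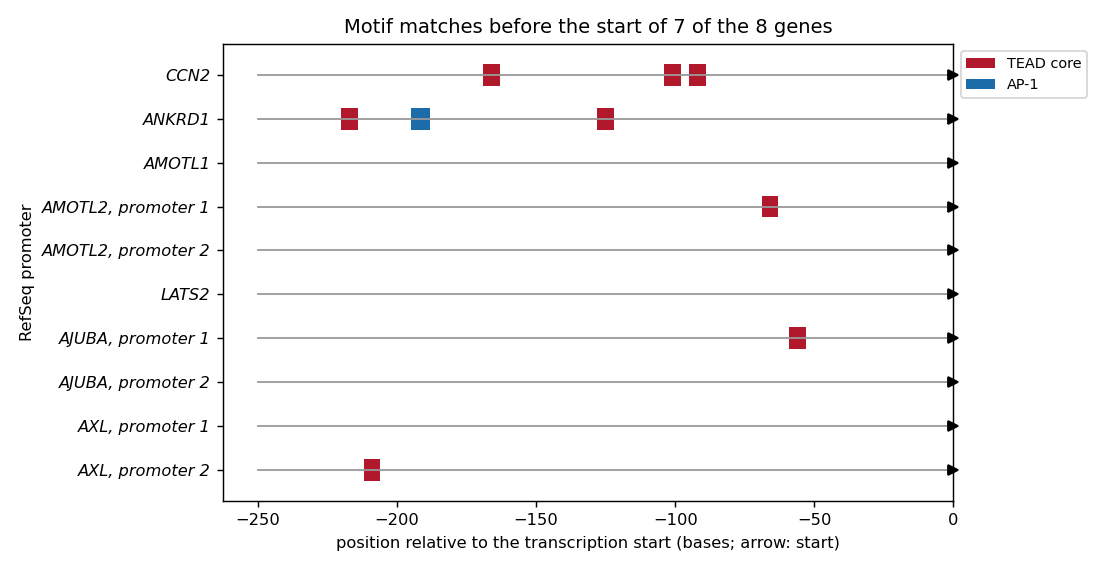
Positions of motif matches in the 250 bases before the transcription start (x axis, bases relative to the start, which the arrow marks) in each of the 10 RefSeq promoters of 7 genes (rows; promoters of 1 gene are numbered by position on the chromosome). Red boxes are TEAD core matches and the blue box is the AP-1 match; CCN2 has 3 red boxes and ANKRD1 has 2.

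Recovered totals were 26638292 to 38231296 reads per library in the 30 min experiment and 11958939 to 13693416 in the 2 h experiment. Log2(RPKM + 1) of 6558 genes correlated at 0.981 to 0.996 among replicates and at 0.936 to 0.960 across the experiments, and treatment effects were computed within experiments. Of 9 retinal pigment epithelium markers, RPE65, RLBP1, TYR and LRAT had at most 0.0656 RPKM and CRX was listed at 0 in all 10 libraries, so defining markers of the mature epithelium were near absent. BEST1 (2.10 to 20.0 RPKM), OTX2 (2.35 to 4.61 RPKM) and PMEL (3.68 to 5.07 RPKM) were present, and MITF was low (0.218 to 0.415 RPKM). BEST1 had the widest range, so it weighs most in differences of the sum of the 9 markers. The summed marker level was 8.80 to 11.4 RPKM in the 30 min experiment, 28.1 to 29.0 RPKM in untreated cells and 25.0 to 28.8 RPKM after 2 h of merbarone. Of the 3 epithelial markers tested at 2 h, 1 fell (OTX2, by 0.32 on the log2 scale), where 7.1% of all genes fell. The part of this in the results below was not tested. Markers of blood, endothelium, photoreceptor, neuron, Schwann cell and muscle, 6 in all, summed to at most 0.118 RPKM in any library.

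CCN2, CCN1 and ANKRD1 rose after 2 h of merbarone, and the other 5 genes did not pass the test. CCN2 (ENSG00000118523; GRCh37 chromosome 6, 132269316 to 132272512, minus strand) measured 215 and 233 RPKM in untreated cells and 409 and 462 RPKM after merbarone. RPKM is a gene's reads scaled to its length and to the reads of the library, and 8899 to 19260 reads lay behind each of these values. Both treated libraries were far above both controls. The group means were 224 ± 12.5 and 435 ± 37.6 RPKM (SD, n = 2). Limma on log2(RPKM + 1) gave a log2 fold change of 0.95 ± 0.12 (SE; adjusted p 0.00156). Of the 6620 genes tested, 67 had a larger rise. CCN2 kept its call when any library was left out, and lost it with no filter on low genes (adjusted p 0.0976) and when all 10 libraries were fitted together (adjusted p 0.303). In the annotation it overlaps the noncoding gene LINC01013, whose reads cannot be told from its own if strand was not used.

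CCN1 (ENSG00000142871; chromosome 1, 86046444 to 86050272, plus strand) measured 254 and 263 RPKM in untreated cells and 342 and 379 RPKM after 2 h of merbarone. The groups did not overlap, with means of 258 ± 6.71 and 361 ± 26.0 RPKM (SD, n = 2). The change was 0.48 ± 0.12 (SE) on the log2 scale (adjusted p 0.0290, limma). ANKRD1 (ENSG00000148677; chromosome 10, 92671853 to 92680844, minus strand) stood at 55.1 and 55.5 RPKM in untreated cells, nearly the same value, and at 73.8 and 83.6 RPKM after merbarone. It rose by 0.50 ± 0.11 (SE) on the log2 scale (adjusted p 0.0247, limma). The calls of CCN1 and ANKRD1 rested on both treated libraries. Without the first 2 h merbarone library the CCN1 change was 0.55 (adjusted p 0.127) and without the second it was 0.40 (adjusted p 0.299). For ANKRD1 the same fits gave 0.59 (adjusted p 0.0820) and 0.41 (adjusted p 0.278). CCN2 passed in both, with adjusted p-values of 6.07e-05 and 0.00188. In whole cultures, a change in the RNA per cell and a change in the share of cells that make it cannot be told apart.

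These 3 were the only genes of the 8 past the threshold in this fit. Of the 7 that were tested, 3 passed higher and 0 lower. Among all 6620 genes, 866 passed (13.1%), of which 396 were higher (5.98%) and 470 lower (7.1%). Treated and untreated values did not overlap for 5 of the 8 genes, where 61.5% of all genes tested did not overlap. These were 4 higher, against 22.5% of all genes, and 1 lower, against 39%. The median log2 change of the 7 genes was 0.14, and that of all genes was -0.05.

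AMOTL2 and AJUBA were the other genes whose groups did not overlap. AMOTL2 (ENSG00000114019; chromosome 3, 134074189 to 134094321, minus strand) measured 11.2 and 12.6 RPKM untreated and 12.9 and 13.5 RPKM after merbarone. The gap between the groups was smaller than the gap between the untreated libraries. Its log2 difference of 0.14 had a 95% confidence interval of -0.09 to 0.37 and an adjusted p of 0.366. AJUBA (ENSG00000129474; chromosome 14, 23440386 to 23451760, minus strand) measured 17.0 and 19.4 RPKM untreated and 14.3 and 14.0 RPKM after merbarone, against the direction of CCN1 and CCN2. Its log2 difference was -0.34 ± 0.11 (SE), with an adjusted p of 0.0674. It passed with voom on the recovered reads (adjusted p 0.0272), without the intensity trend (adjusted p 0.0460) and without the first untreated library (-0.43, adjusted p 0.00181). AJUBA overlaps another gene of the tables, ENSG00000259132, and the sources used here do not say whether counting used strand, so its values are uncertain.

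The remaining 3 genes overlapped between the groups. AMOTL1 (ENSG00000166025; chromosome 11, 94439597 to 94609913, plus strand) measured 1.39 and 1.28 RPKM untreated and 1.36 and 1.39 RPKM after merbarone. The 95% confidence interval of its log2 difference was -0.12 to 0.18. AXL (ENSG00000167601; chromosome 19, 41725128 to 41767671, plus strand) measured 21.5 and 20.1 RPKM untreated and 19.1 and 20.1 RPKM after merbarone, with an interval of -0.31 to 0.15. The sign of the AXL difference was negative in the deposited scale (-0.08) and positive after quantile normalization (0.02). LATS2 (ENSG00000150457; chromosome 13, 21547175 to 21635725, minus strand) overlaps the antisense gene LATS2-AS1 and lay below the filter of 1 RPKM, at 0.556 and 0.577 RPKM untreated and 0.592 and 0.566 RPKM after merbarone. With 611 to 718 reads behind each value, voom gave a log2 difference of 0.03 with an interval of -0.22 to 0.28; that fit called 14% of 13441 genes.

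**Figure D2:**
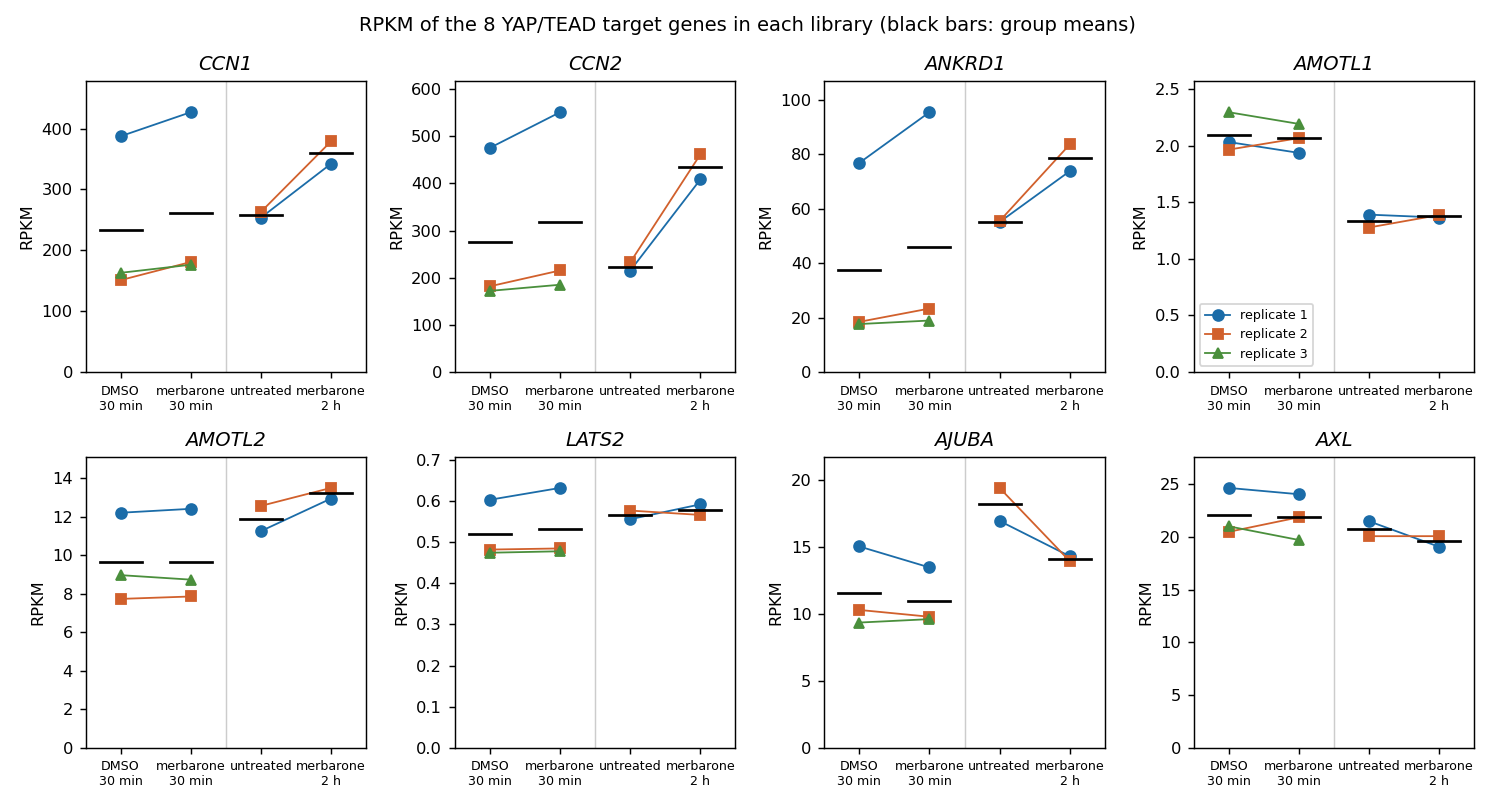
RPKM (y axis, from 0, with its own scale per gene) of each of the 8 genes in the 10 libraries, by group (x axis). Points are libraries, lines join libraries with the same replicate number within an experiment, and black bars are group means; CCN1, CCN2 and ANKRD1 rise at 2 h, and replicate 1 of the 30 min experiment lies far above replicates 2 and 3 for them in both groups.

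After 30 min of merbarone none of the 8 genes passed the test, and CCN1, CCN2 and ANKRD1 varied more between replicates than between treatments. CCN2 measured 476, 182 and 172 RPKM in DMSO and 551, 215 and 185 RPKM in merbarone, for replicates 1, 2 and 3. CCN1 measured 387, 151 and 163 RPKM in DMSO and 427, 181 and 176 RPKM in merbarone. ANKRD1 measured 76.9, 18.4 and 17.6 RPKM in DMSO and 95.5, 23.3 and 18.9 RPKM in merbarone. In each of the 3 genes replicate 1 was the high library of both groups. The ranges of the groups overlapped for most of their width, with both ends higher in merbarone.

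The log2 fold changes at 30 min were 0.19 ± 0.55 for CCN2, 0.17 ± 0.48 for CCN1 and 0.24 ± 0.78 for ANKRD1 (SE), all with adjusted p-values of 1.00 in limma. Of the 7 genes tested, 0 passed, and 0 had an unadjusted p under 0.05. Among all 6500 genes, 1 passed (0.0154%). No gene of the 8 had groups that did not overlap, against 2.28% of all genes. The sign of these values changed with the single library left out of the fit without a block. The library of the same replicate number then stayed in the other group. For CCN1 the value was -0.25 without merbarone replicate 1, -0.07 without DMSO replicate 2 and -0.02 without DMSO replicate 3, and 0.60 without DMSO replicate 1. CCN2 and ANKRD1 turned negative without the same 3 libraries. Without replicate 1 of both groups, a choice made after its values were seen, the changes were 0.19 for CCN1, 0.17 for CCN2 and 0.21 for ANKRD1, and 0 of the 8 genes passed.

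Compared within pairs of the same replicate number, the 3 genes were higher after merbarone in 3 of 3 pairs, as was LATS2 by less (ratios of 1.05, 1.01 and 1.01). The ratio of merbarone to DMSO was 1.10, 1.20 and 1.08 for CCN1 in replicates 1, 2 and 3. It was 1.16, 1.18 and 1.08 for CCN2 and 1.24, 1.26 and 1.07 for ANKRD1. A gene was higher in all 3 pairs in 8.72% of the 6500 genes tested. With the replicate number as a block, the standard error of the CCN1 change fell to 0.047, that of CCN2 to 0.046 and that of ANKRD1 to 0.057. The unadjusted p-values were then 0.0120, 0.00729 and 0.00590, and the adjusted ones 1.00, 1.00 and 0.959 (limma). That fit called 8 of all genes (0.123%) and 0 of the 8 genes described here. The 3 genes were thus higher in each pair without passing adjustment over all genes. The pairs and the block rest on the replicate numbers of the labels, and whether numbers 2 and 3 pair the libraries was not established.

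The other genes moved less at 30 min. AMOTL2 measured 12.2, 7.73 and 8.96 RPKM in DMSO and 12.4, 7.85 and 8.73 RPKM in merbarone. AJUBA measured 15.1, 10.3 and 9.36 RPKM in DMSO and 13.5, 9.80 and 9.62 RPKM in merbarone. AXL measured 24.7, 20.5 and 21.0 RPKM in DMSO and 24.1, 21.9 and 19.7 RPKM in merbarone. In these 3 genes replicate 1 was again the highest library of each group, by smaller margins. AMOTL1 measured 2.03, 1.96 and 2.29 RPKM in DMSO and 1.94, 2.07 and 2.19 RPKM in merbarone, with replicate 3 highest. LATS2 measured 0.603, 0.482 and 0.474 RPKM in DMSO and 0.632, 0.485 and 0.478 RPKM in merbarone. With the block, the 95% confidence intervals of the log2 differences were -0.09 to 0.09 for AMOTL2, -0.18 to 0.06 for AJUBA, -0.13 to 0.11 for AXL and -0.10 to 0.07 for AMOTL1. For LATS2, in voom with the block, the interval was -0.07 to 0.13; that fit called 0.0928% of 14013 genes.

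**Figure D3:**
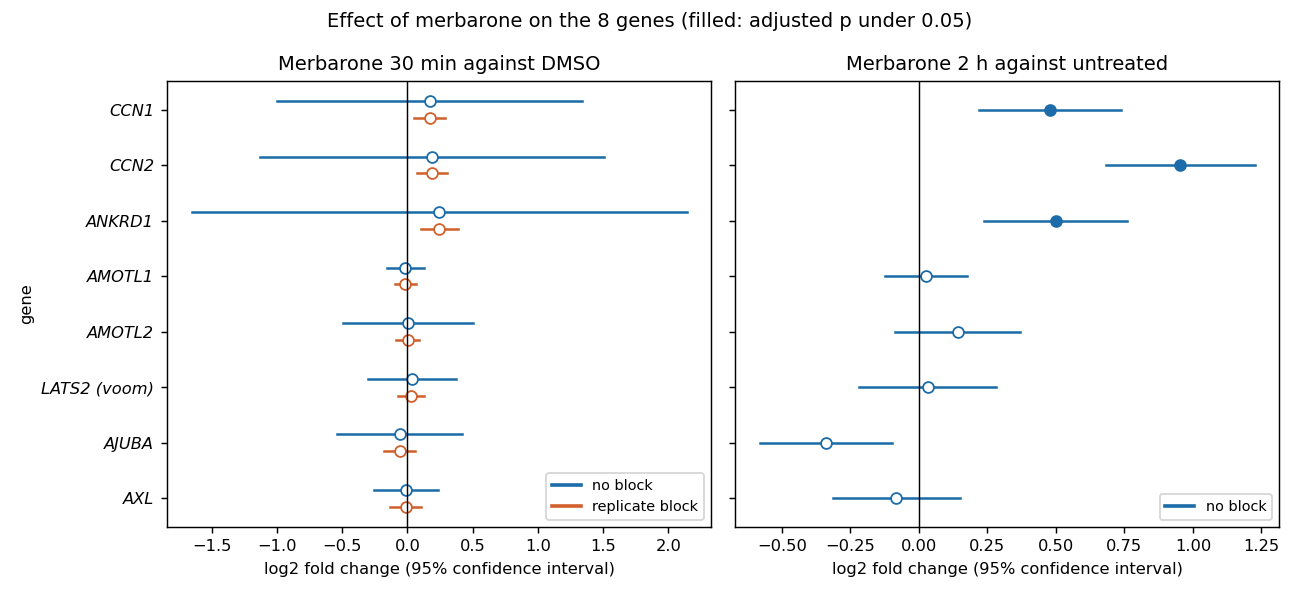
Log2 fold change (x axis; points) with its 95% confidence interval (lines) for each of the 8 genes (rows) after 30 min and after 2 h of merbarone, from limma on log2(RPKM + 1), or from voom for LATS2. Filled points passed an adjusted p of 0.05; the replicate block, drawn for 30 min, narrows the intervals of CCN1, CCN2 and ANKRD1 around the same values, and at 2 h the same 3 genes passed.

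The largest contrast among the 30 min libraries for these genes was between replicates rather than between treatments. In both DMSO and merbarone, ANKRD1 in replicate 1 stood at 4.26 and 4.52 times the mean of replicates 2 and 3. For CCN2 the ratios were 2.69 and 2.75, and for CCN1 they were 2.47 and 2.39. Averaged over the 2 groups, the log2(RPKM + 1) difference between replicate 1 and the others was 2.08 for ANKRD1, 1.44 for CCN2 and 1.28 for CCN1. Of the 6500 genes tested, 0, 1 and 6 had larger differences, respectively. The differences were 0.52 for AMOTL2, 0.50 for AJUBA, 0.22 for AXL, 0.13 for LATS2 and -0.07 for AMOTL1, so the order of the genes ran from the secreted and ankyrin repeat proteins down to AMOTL1.

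Few genes of the whole table differed as much between these replicates. A difference above 1 was found in 19 of 6500 genes (0.292%), and the median over all genes was -0.03. Of the 21 other YAP/TEAD target genes tested, 4 lay above 1, namely F3 at 1.33, THBS1 at 1.14, TGFB2 at 1.11 and EDN1 at 1.08. These 4, named after their values were seen, encode tissue factor, thrombospondin 1, a TGF-beta ligand and the endothelin 1 precursor. EDN1 lay near the filter of 1 RPKM at 30 min and was tested in 4 of the 6 fits without 1 library. It fell below the filter without replicate 1 of either group. It was thus tested, and counts among the 4 and the 21, only through its high replicate 1. The median of the 21 genes was 0.37, and 15 of them were higher in replicate 1 of both groups, against 34.3% of all genes. Others lay far below 0, such as BIRC5 at -0.70 and TGFB1 at -0.38. Of the 6500 genes, 6462 and 6203 lay above these, which were also named after their values were seen. YAP1 (-0.13), WWTR1 (-0.24) and TEAD1 (0.04) were not higher in replicate 1 by a comparable amount. The TEAD cofactor VGLL3 (0.75) and the Hippo regulator FAT1 (0.80), named after their values were seen, were among the higher genes, with 36 and 30 of all genes above them. EGR1, an immediate-early gene outside the lists, lay at 1.42. These are descriptions of 1 replicate number with no test, and the labels give no batch, date or culture for it.

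**Figure D4:**
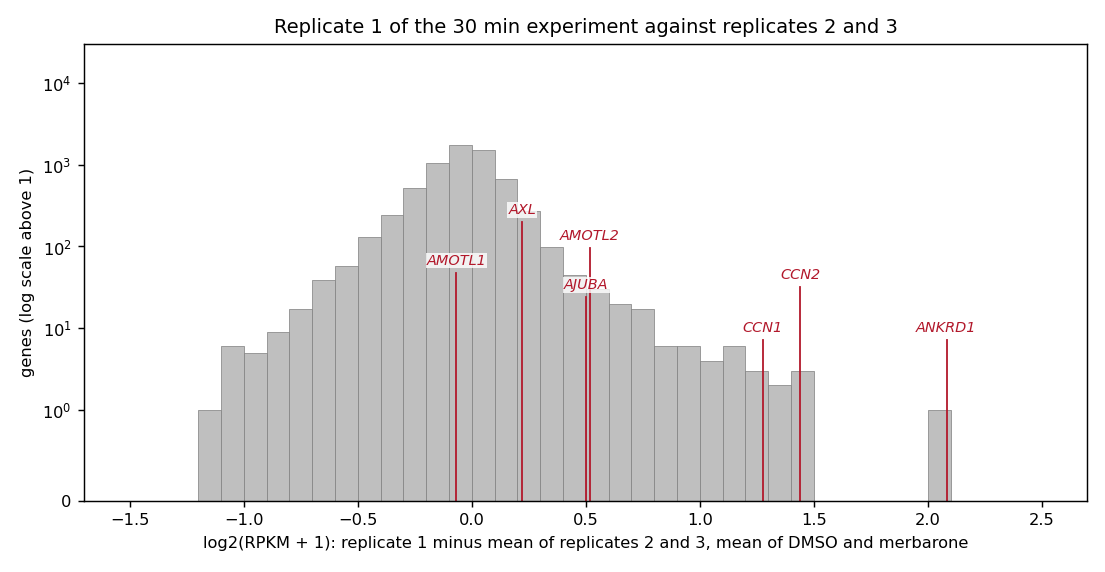
Histogram over the 6500 genes tested at 30 min (y axis, number of genes, log scale above 1) of the log2(RPKM + 1) difference between replicate 1 and the mean of replicates 2 and 3, averaged over DMSO and merbarone (x axis). Red lines mark 7 of the 8 genes (LATS2 was below the filter); ANKRD1 has the largest difference of all genes, at 2.08.

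The 2 h effect was then set against the 30 min effect in 1 fit of the 10 libraries, where time, vehicle and experiment cannot be told apart. The log2 difference was 0.77 for CCN2, 0.31 for CCN1, 0.26 for ANKRD1 and -0.28 for AJUBA, and without a block 0 of 7 genes passed in limma, with 0 at an unadjusted p under 0.05. Among all 6558 genes, 107 passed (1.63%). With the replicate block 1255 passed (19.1%), among them CCN2 (adjusted p 0.00200) and CCN1 (adjusted p 0.0441). ANKRD1 (adjusted p 0.113) and AJUBA (adjusted p 0.0742) did not pass there. CCN2 without replicate 1 of both 30 min groups and without a block had a difference of 0.78 (adjusted p 0.0502), and in that fit CCN1 was at 0.29 and ANKRD1 at 0.29, neither of which passed. Leaving out 1 library of a 30 min pair, without a block, leaves its partner in the other group. Without DMSO replicate 1, the CCN1 difference turned to -0.12, that of ANKRD1 to -0.42 and that of AMOTL2 to -0.03. The ANKRD1 difference also turned to -0.03 without merbarone replicate 2 and to -0.17 without merbarone replicate 3 of the 30 min experiment.

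The other known YAP/TEAD targets split at 2 h. Of 29 on the list, 19 were tested, 4 rose, 2 fell and 13 did not pass. Among all 6620 genes tested, 5.98% rose and 7.1% fell. The median log2 change of the 19 was 0.14, and that of all genes was -0.05. GADD45A, a stress-induced gene of growth arrest, rose from 13.4 ± 0.292 to 68.0 ± 12.0 RPKM (SD, n = 2), by 2.25 ± 0.13 (SE) on the log2 scale. HBEGF, an EGF receptor ligand, rose from 1.15 ± 0.0743 to 4.29 ± 0.965 RPKM (SD, n = 2), by 1.29 ± 0.12 (SE). EDN1 rose from 0.585 ± 0.00376 to 2.29 ± 0.107 RPKM (SD, n = 2), by 1.05 ± 0.07 (SE). Untreated EDN1 lay under the filter of 1 RPKM, so it was tested, and counts among the 4, only through its treated level. The added 1 RPKM shrinks the log2 changes of HBEGF and EDN1, which voom on the recovered reads put at 1.88 and 1.96. FJX1, the human counterpart of the fly gene four-jointed, stood at 11.2 ± 0.297 RPKM untreated and fell to 6.46 ± 0.328 RPKM (SD, n = 2), changing by -0.72 ± 0.09 (SE) in log2. Their adjusted p-values were 1.74e-05, 0.000185, 2.10e-05 and 0.00192 in limma. With no filter on low genes GADD45A (adjusted p 0.0502), HBEGF (adjusted p 0.0898) and FJX1 (adjusted p 0.0692) did not pass, and in 1 fit of all 10 libraries EDN1 (adjusted p 0.138) and FJX1 (adjusted p 0.0530) did not. Several of these genes are also known targets of other stress and growth factor pathways. The other 2 that passed, named after their values were seen, were MYOF (0.45) and BIRC5 (-0.52). BIRC5 encodes survivin, which is also a gene of mitosis. MYOF did not pass without the first (adjusted p 0.0712) or the second 2 h merbarone library (adjusted p 0.0591), and BIRC5 did not pass without the first (adjusted p 0.180).

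The RNAs of YAP1 and TEAD1 did not pass at 2 h in limma without a block, and TEAD1 passed in some other settings. YAP1 measured 1.56 ± 0.223 RPKM untreated and 1.56 ± 0.108 RPKM after 2 h of merbarone (SD, n = 2). TEAD1, a DNA-binding partner, measured 1.16 ± 0.151 and 1.45 ± 0.0157 RPKM (SD, n = 2), a log2 difference of 0.19 (adjusted p 0.117, limma). It passed without the first untreated library (0.26, adjusted p 0.00627), with the replicate block (adjusted p 0.0209), with voom (0.33, adjusted p 0.0375) and with voom and the block (adjusted p 0.00174). WWTR1 was below the filter at 2 h, with 0.774 ± 0.0527 and 0.651 ± 0.0276 RPKM (SD, n = 2). Of 5 tested genes of the list of YAP, TAZ and TEAD cofactors, 0 passed and 1 had an unadjusted p under 0.05. With the block 1 of 5 was called higher (all genes 12.3%) and with voom 1 of 8 (all genes 7.94%). With voom and the block it was 1 higher and 1 lower of 8 (all genes 13.5% and 12.4%). These small counts are not read as a result about the list. The 2 h block fits pooled the spread over genes, so their calls do not measure the spread of each gene alone. RNA levels do not report the phosphorylation or location of YAP.

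Of 6 tested genes of the Hippo cascade and its upstream regulators, 1 rose, FAT1, an atypical cadherin, by 0.56 ± 0.08 (SE, adjusted p 0.00419, limma). Of 8 tested CCN family members and receptors, 1 rose and 1 fell. Both lists are small, and over all genes 5.98% rose and 7.1% fell, so these counts are not read as a result about the lists. LRP1, an endocytic receptor that binds CCN2, went from 6.15 ± 0.443 to 11.0 ± 0.241 RPKM (SD, n = 2), by 0.75 ± 0.09 (SE, adjusted p 0.00167, limma). CCN3, a family member often opposed to CCN2 in its effects, stood at 9.59 ± 0.129 RPKM untreated and 7.04 ± 0.0133 RPKM treated (SD, n = 2), a log2 change of -0.40 (adjusted p 0.0236, limma). CCN2 and CCN3 thus changed in opposite directions. The 2 h call of FAT1 was lost in 2 of 13 other settings and that of LRP1 in 1 of 14. CCN3 did not pass without the first (adjusted p 0.232) or the second 2 h merbarone library (adjusted p 0.189), nor after quantile normalization (adjusted p 0.0534). Of the AXL family and its ligands 2 were tested and of the ankyrin repeat relatives 1, and 0 passed or had an unadjusted p under 0.05. At 30 min 0 of 45 tested genes of the 6 lists passed in limma, with 0 at an unadjusted p under 0.05, and 0 passed with the block, with 2 at an unadjusted p under 0.05.

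**Figure D5:**
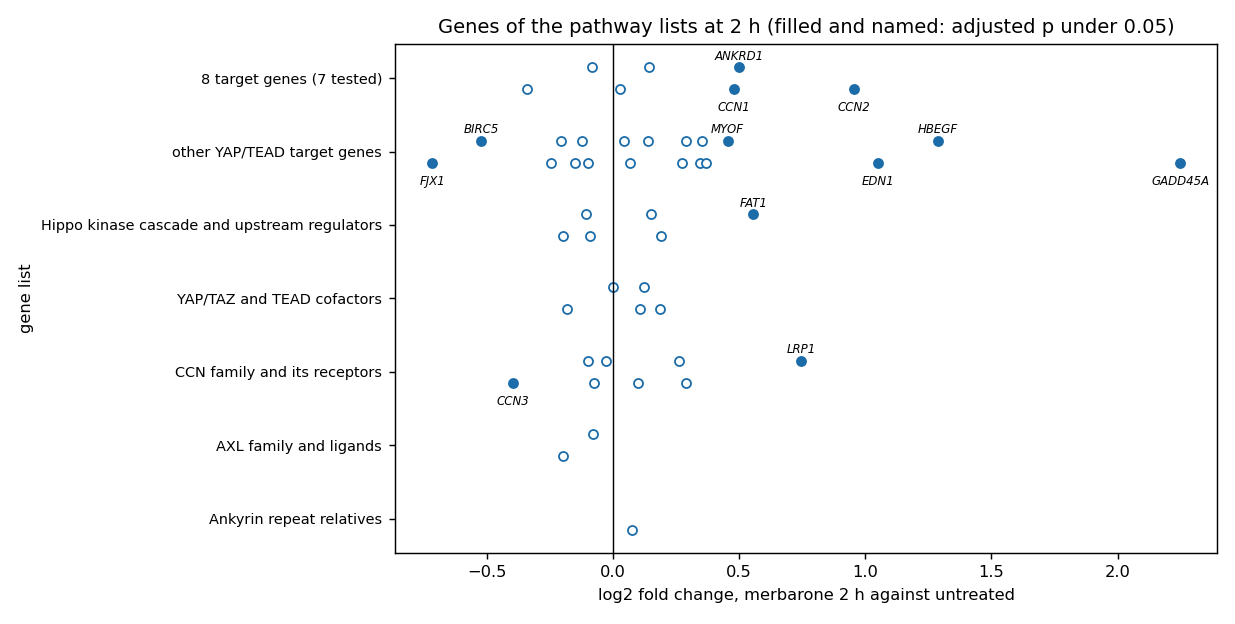
Log2 fold change after 2 h of merbarone against untreated cells (x axis) for the tested genes of each list (rows); points are genes, set at 2 heights per row to separate them. Filled, named points passed an adjusted p of 0.05; GADD45A is the farthest, at 2.25, and CCN3, FJX1 and BIRC5 are the filled points below 0.

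Levels of different genes were compared per kilobase of exon of the canonical transcript, since the lengths behind the deposited RPKM mostly span introns. In untreated cells CCN1 stood highest at 363 ± 9.44 RPKM rescaled to exon length (SD, n = 2), followed by CCN2 at 306 ± 17.1 and ANKRD1 at 284 ± 1.28. AXL stood at 188 ± 9.07. AJUBA (50.1 ± 4.81) and AMOTL2 (47.9 ± 3.73) did not differ beyond their spread, and AMOTL1 (25.3 ± 1.52) and LATS2 (9.04 ± 0.237) were lowest. After 2 h of merbarone CCN2 (595 ± 51.5) lay above CCN1 (507 ± 36.6), with ranges of 559 to 632 and 481 to 533. CCN2 also had the higher level in each library of both 30 min groups, with means in DMSO of 378 for CCN2 and 329 for CCN1. CCN2 thus lay above CCN1 in DMSO too, while in untreated cells, the control at 2 h, CCN1 lay above CCN2. The ranges there were 356 to 370 for CCN1 and 294 to 318 for CCN2. Why the order differed was not tested. In DMSO at 30 min the ranges were 212 to 545 for CCN1, 236 to 651 for CCN2, 90.5 to 394 for ANKRD1 and 185 to 223 for AXL. They overlapped except that CCN2 lay above AXL throughout, and replicate 1 gave the upper end of each.

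The genes whose pattern over the 10 libraries was most like CCN1, after the mean of each experiment was taken out, were CEMIP (Pearson r 0.993), EFNB2 (0.992) and ANKRD1 (0.989). CEMIP, a gene of hyaluronan breakdown, measured 3.11 and 3.14 RPKM in replicate 1 of DMSO and of 30 min merbarone, and 0.759 to 0.930 RPKM in replicates 2 and 3. Its values were 1.17 and 1.26 RPKM in untreated cells and 1.90 and 1.91 RPKM after 2 h of merbarone. The genes most like CCN2 were PVR (0.991), CEACAM19 (0.989) and RBM24 (0.987). PVR, a cell adhesion receptor, measured 8.71 and 8.78 RPKM in replicate 1 of the 30 min groups, 4.49 to 5.40 RPKM in the others, 8.07 and 8.10 RPKM untreated and 10.8 and 11.8 RPKM at 2 h. CCN1 and CCN2 correlated with each other at 0.974. AMOTL2 correlated with CCN1 at 0.951, AXL at 0.725, AJUBA at 0.615 and AMOTL1 at -0.41. These correlations are across 10 libraries of 6558 genes and share the high replicate 1 of the 30 min experiment and the depth of each library.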

How the data were processed

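RNA was sequenced with the TruSeq Stranded mRNA kit from 150 ng of RNA, per the labels' protocols. The authors deposited RPKM values, 1 table per library, per the file headers. The submitters' processing notes name Bowtie 1.2.0, DESeq2, edgeR, deepTools 2.4.1, hg19 and GRCh37 without roles; the counter and its strand setting are not given in the sources used here. The implied gene lengths lay within 1% of the GRCh37 gene span, introns included, for 75.2% of 17234 genes. For CCN1 the implied length was 3202 bases against a span of 3829. Whole reads were recovered from the RPKM steps for 17680 genes, 100% of those above 0, within 0.01 read. RPKM is a share of a library, so a rise of abundant genes lowers the others.

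Tests used limma 3.58.1 (R 4.3.3; lmFit, eBayes with trend) on log2(RPKM + 1), which understates changes of low genes. Genes averaging under 1 RPKM across a fit's libraries were left out. Tests were two-sided, with Benjamini-Hochberg adjustment over all genes tested and a threshold of 0.05. Each experiment was fitted on its own. Voom was run on recovered reads for genes averaging 10 or more reads, and supplies the LATS2 values. Deviations of same-numbered libraries from their group means correlated at 0.925, 0.646 and 0.605 at 30 min. There the replicate numbers from the labels were taken to pair the libraries. Deviations within a group cancel out, so a replicate 1 that stands apart in both groups also raises the values of replicates 2 and 3. Libraries with unlike numbers were not correlated, so these values cannot show that numbers 2 and 3 pair the libraries. Other settings tried were 0.1 as pseudocount, no filter or 5 RPKM, median scaling, quantile normalization, no trend, the block, voom, 1 fit of all 10 libraries and each library left out. The fits were also run on simulated data that held no replicate effect. That run does not show how they behave where a replicate stands apart, as at 30 min. The 8 genes and the lists were chosen with earlier results of these data known. Named from each list were at most 4 genes with the largest change at 2 h among those past the threshold, plus YAP1, WWTR1 and TEAD1, with exceptions said; 1 gene of the list of other YAP/TEAD targets is not reported here and was left out of the list's counts. Python 3.11.15, pandas 2.3.3, NumPy 2.4.6 and matplotlib 3.10.9 were used.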

Additional observations from a re-analysis of the deposited data

Results flagged for a closer look

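In limma, a test of the difference between the 2 h and the 30 min effect passed for 11 named genes. Time, kind of control and experiment cannot be told apart in this difference. All but CCN1 and CCN2 were named because they had passed at 2 h, and the difference reuses those 2 h values. Passing here is thus no separate support for their 2 h changes. Over all 6558 genes the difference passed for 1.63% without a block and for 19.1% with the replicate block, and 9 of the 11 passed only with the block. Without a block, the log2 difference passed for GADD45A (2.27, adjusted p 0.0225) and HBEGF (1.18, adjusted p 0.0353). With the replicate block it passed for both, with adjusted p-values of 4.94e-05 and 0.00117. Among the 8 target genes it passed with the block for CCN2 (0.77, adjusted p 0.00200) and CCN1 (0.31, adjusted p 0.0441). Other targets that passed with the block were EDN1 (0.98), MYOF (0.41), BIRC5 (-0.48) and FJX1 (-0.61). LRP1 (0.64), FAT1 (0.44) and CCN3 (-0.45) passed there too. The call of HBEGF was lost in 11 of 19 other settings and that of GADD45A in 5 of 20, where their adjusted p-values reached 0.161 and 0.128. At 2 h the replicate numbers were not shown to pair the libraries, so the block is less well grounded there.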

How the results depend on the processing

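The 2 h rises of CCN1, CCN2 and ANKRD1 kept their direction in all 14 alternatives run. At 2 h the 866 genes called became 53 with no filter, 397 with 5 RPKM, 2129 with the replicate block, 1886 with voom and 3488 with voom and the block. Without 1 library it was 328 and 398 (merbarone replicates 1 and 2) to 1311 and 2464 (untreated replicates 2 and 1). The share of calls that were higher was 45.7%, and 56.6% with voom, 90.6% with no filter and 33.0% with 5 RPKM. The 3 target genes called at 2 h became 0 with no filter and 0 in 1 fit of all 10 libraries, and 1 to 4 without 1 library. CCN1 kept 0.48 and CCN2 0.95 in both of those fits, with adjusted p-values of 0.152 and 0.0976 with no filter and 0.573 and 0.303 in the fit of all libraries, which includes the spread of replicate 1 at 30 min. Without 1 library CCN1 ranged from 0.40 to 0.55. The replicate block in limma called AJUBA at 2 h (adjusted p 0.00489, where 32.2% of all genes passed). It changed no call of the other 6 tested genes there. At 2 h the 2 numbers gave a correlation of 0.300 and are not known to pair the libraries. The 2 h block fits, with and without voom, pooled the spread over genes. Their calls thus do not measure the spread of each gene alone. Of the other YAP/TEAD targets at 2 h, 4 of 19 were called higher and 2 lower, against 5.98% and 7.1% of all genes. With the block it was 9 and 4 of 19 (all genes 12.3% and 19.9%), and with voom 11 and 3 of 27 (7.94% and 6.09%). At 30 min the 1 gene called became 0 with no filter, 2 with 5 RPKM, median scaling, quantile normalization or the fit of all libraries, 8 with the block, 13 with voom and the block, and 0 to 2 without 1 library; 0 target genes were called in all of these. For the difference between experiments, 107 became 361 with no filter, 36 with 5 RPKM, 1255 with the block, 66 with voom, 1997 with voom and the block, and 38 to 86 without 1 library (lowest without either 2 h merbarone library). Its share of higher calls was 77.6%, and 88.6% with quantile normalization. The target genes with a called difference went from 0 to 2 with the block and 3 with voom and the block, where AJUBA passed (-0.30, adjusted p 0.0480); CCN1 (0.31) and CCN2 (0.77) passed in both. With 2 libraries per group, a fit without 1 of them assumes that the lone library varies like the other group. Depth limits LATS2 most, with 611 reads in its shallowest library.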
